A study of Mus musculus with 9 samples.

Results

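Branched-chain amino acid and ketone catabolism was followed in mouse hearts through 30 genes, fixed by name, that encode the enzymes, the mitochondrial carrier and the regulators of these pathways. All 30 of 30 were found by symbol among the 55401 rows of the gene count table, no member's symbol was repeated, and all 30 passed the filter on low counts. Total RNA was taken from whole hearts in 3 groups of 3 libraries. Control hearts came from wild-type (WT) mice and are labelled control, and the design text describes a sham operation. TAC hearts came from WT mice 12 weeks after transverse aortic constriction, a narrowing of the aorta that raises the pressure the left ventricle works against. KO-TAC hearts came from c-Myc knockout mice with the same operation and the same time of 12 weeks. In these animals c-Myc flox/flox alleles are deleted by Tcf21 iCre, a tamoxifen-inducible Cre (MerCreMer) driven by a gene of cardiac fibroblasts. Below, operated hearts means TAC and KO-TAC hearts. Mice of all 3 groups are listed as 8 to 12 weeks old, and the mice described as operated were male. Tamoxifen was given at 45 mg/kg on 5 days. It is described for the knockout line, and the sources used here do not give whether WT mice had it too. No knockout heart without TAC was analysed here, so deletion, Cre and tamoxifen cannot be told apart in the comparisons that use KO-TAC hearts. The RNA of each heart mixes heart muscle cells, which do not carry the fibroblast deletion, with fibroblasts and all other cells of the organ. Nothing in the labels ties each library to a separate mouse, and p-values therefore describe the spread of these 9 libraries, which may be technical.

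Leucine, isoleucine and valine are first stripped of their amino group by a branched-chain aminotransferase, and the resulting keto acids are then committed to oxidation by the branched-chain keto acid dehydrogenase of the mitochondrial matrix. A kinase switches that complex off by phosphorylation and a phosphatase switches it on, and downstream branches deliver acetyl-CoA, acetoacetate and, through propionyl-CoA, succinyl-CoA to the citric acid cycle. Ketone bodies, which the heart takes up from the blood, are oxidized in the same compartment by enzymes that end in acetyl-CoA, and the transcription factor KLF15 is known to drive branched-chain amino acid genes in heart muscle.

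Of the sequences below, those of Klf15 and Mccc2 carry, just upstream of the start, letters that the product of the deleted gene is known to bind. The sequence of Ppm1k does not carry these letters and holds matches to GGGCGG only. RefSeq promoters (GRCm38.p6) matched 25 of the 30 members, with 32 promoters in all. Dbt, Slc25a44, Acat1, Abat and Mmut are named only. In the 250 bases before the start, both strands were searched for CACGTG (the E-box bound by MYC and its relatives, which reads the same on both strands), for AAGGTCA (the estrogen-related receptor element) and for GGGCGG (the GC box of SP and KLF factors). CACGTG was present in 2 of the 32 promoters (6.2%), those of Klf15 and Mccc2, beside 6.02% of all 32851 promoters. GGGCGG was present in 15 (46.9%), Ppm1k among them, beside 32.74% of all promoters. AAGGTCA was present in 0 of the 32, beside 4.08% of all promoters, which says only that these letters are not in this window. Capitals mark the matches to CACGTG and GGGCGG, on either strand, and in the 3 sequences printed no match overlapped another. The stretches are chr6:90462326-90462575 on the plus strand for Klf15, chr13:100015640-100015889 on the minus strand for Mccc2 and chr6:57535488-57535737 on the minus strand for Ppm1k, each written 5′ to 3′ along its gene. A match is a description of letters and not a binding site.
Klf15: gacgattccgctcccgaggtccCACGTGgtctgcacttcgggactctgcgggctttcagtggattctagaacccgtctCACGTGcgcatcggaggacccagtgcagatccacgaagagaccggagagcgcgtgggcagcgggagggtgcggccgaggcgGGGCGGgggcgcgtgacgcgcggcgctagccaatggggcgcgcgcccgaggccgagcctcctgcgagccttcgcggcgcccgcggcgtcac
Mccc2: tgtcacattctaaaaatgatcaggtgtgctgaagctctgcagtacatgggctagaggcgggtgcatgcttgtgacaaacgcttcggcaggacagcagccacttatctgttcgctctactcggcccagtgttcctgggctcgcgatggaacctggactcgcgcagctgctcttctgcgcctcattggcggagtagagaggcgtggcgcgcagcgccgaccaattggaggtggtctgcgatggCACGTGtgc
Ppm1k: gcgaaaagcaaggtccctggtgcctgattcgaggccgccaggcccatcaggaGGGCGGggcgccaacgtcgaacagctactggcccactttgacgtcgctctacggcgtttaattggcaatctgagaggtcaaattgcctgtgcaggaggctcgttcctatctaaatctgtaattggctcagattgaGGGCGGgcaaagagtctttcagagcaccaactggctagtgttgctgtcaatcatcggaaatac

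Libraries held 59702513 to 109162107 counts, and 23.78% to 38.45% of them were mitochondrially encoded transcripts. Values are given as CPM, the counts of a library brought to the same total as the others after TMM scaling. Differences are log2 ratios from the edgeR fit to all 9 libraries. Their standard error (SE) is approximate and was derived from the test statistic. A gene passed where its adjusted p was under 0.05 over the 19051 genes kept. Genes said to fall or rise passed as lower or higher in the fit named, over the genes kept in that fit. The deleted gene, Myc, was at 2.15, 2.47 and 1.55 CPM in control hearts 1 to 3, at 8.93, 6.22 and 14.2 CPM in TAC hearts and at 4.22, 1.87 and 4.75 CPM in KO-TAC hearts. Every KO-TAC heart was below every TAC heart, the direction of the labels. TAC heart 3 stood apart from all other libraries: the summed level of 10 cardiomyocyte markers was 13200 CPM there, against 85300 to 86700 CPM in control hearts, 48400 CPM in TAC heart 1 and 95100 CPM in TAC heart 2. TAC heart 2 lay close to the control hearts. The counts and medians of the pathway are therefore given with and without these hearts. For the single steps and the genes described at most length, such values are given mainly for TAC against control.

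In control hearts Oxct1 and Acat1 of ketone oxidation and the dehydrogenase subunit Bckdha gave the most transcripts for their length. Per kilobase of exon, Oxct1 was at 302 ± 14 CPM, Acat1 at 138 ± 3.1 CPM, Bckdha at 123 ± 5.7 CPM and Dld at 106 ± 2.3 CPM (mean ± SD, n = 3). Bdh1, the remaining enzyme of ketone oxidation, was in the 11th place at 25.8 CPM per kilobase. Bcat1 was lowest at 0.0978 ± 0.0065 CPM per kilobase, and Abat, Mmaa and Slc25a44 were next at 3.45 to 5.13 CPM per kilobase. The control hearts were close to each other: the median SD of log2 CPM over the 30 genes was 0.071 in control hearts, beside 0.171 over all genes. It was 1.53 in TAC hearts (0.604 over all genes) and 0.525 in KO-TAC hearts (0.33 over all genes), so the pathway's spread between hearts was wider than that of the median gene in both operated groups. The 5 genes described at most length below lie, in GENCODE's annotation of GRCm38, on chromosome 3 from 116513070 to 116549981 (Dbt), chromosome 6 from 57506502 to 57535468 (Ppm1k) and from 90462576 to 90475238 (Klf15), chromosome 16 from 31422280 to 31458901 (Bdh1) and chromosome 15 from 4026383 to 4155344 (Oxct1). All 30 are annotated as protein coding.

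Summed over the 30 genes, the pathway was at 4740, 4720 and 4610 CPM in control hearts, at 1740, 4870 and 553 CPM in TAC hearts and at 2190, 3750 and 4580 CPM in KO-TAC hearts. The 3 TAC hearts thus spanned a range that held all the other hearts. Gene by gene, the median log2 level relative to the control mean was -1.21, 0.10 and -2.80 in TAC hearts 1 to 3 and -0.97, -0.29 and -0.05 in KO-TAC hearts 1 to 3. More than 1 log2 unit below the control mean were 16 genes in TAC heart 1, 0 in TAC heart 2 and 27 in TAC heart 3, and 14, 3 and 1 genes in KO-TAC hearts 1 to 3. The map of the 30 genes by heart shows this as columns: most genes of a heart lay to the same side of the control mean, and the size of the shift differed between hearts of the same group.

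**Figure D1:**
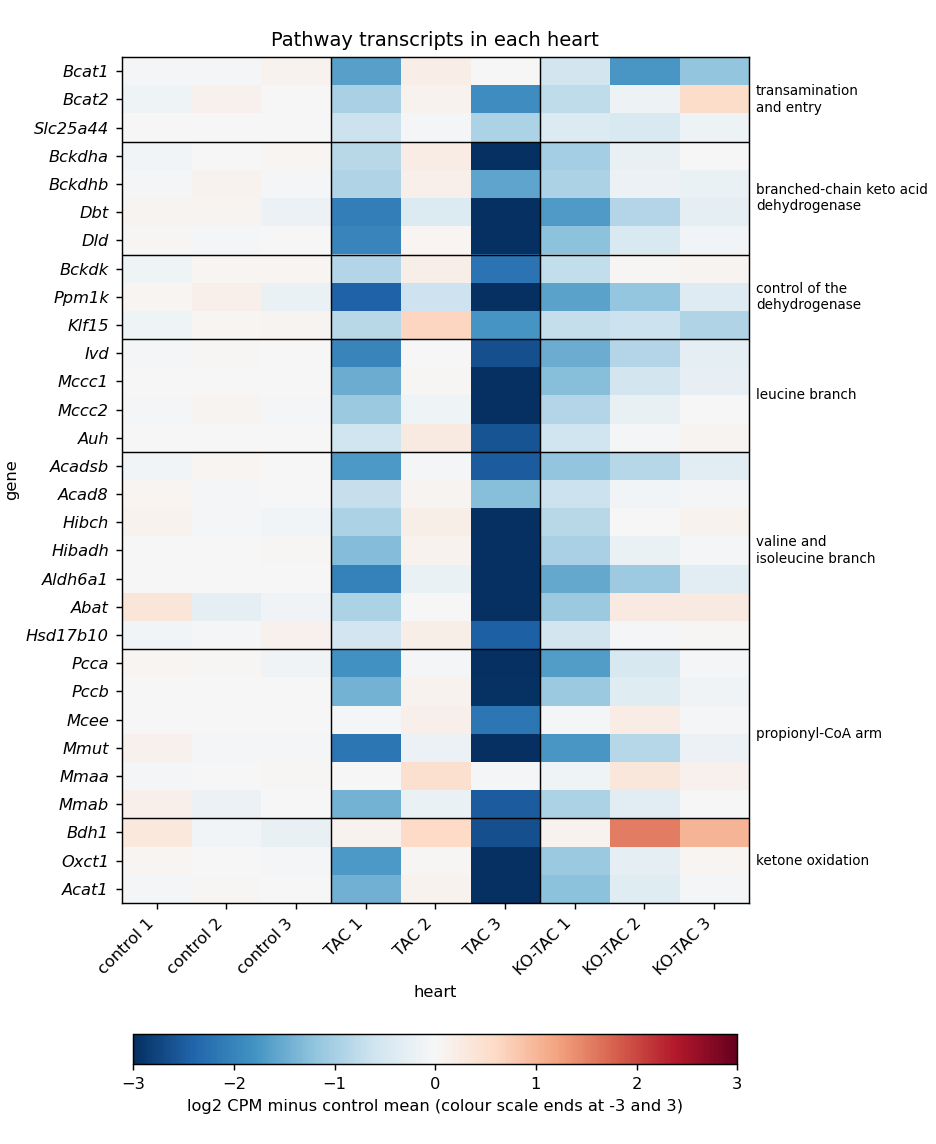
Level of each of the 30 genes (vertical axis, grouped by pathway step) in each of the 9 hearts (horizontal axis), as log2 CPM minus the mean of the 3 control hearts, blue for lower and red for higher. TAC heart 3 is dark blue in nearly every gene (median -2.80), TAC heart 2 is near the controls (median 0.10), and Bdh1 in KO-TAC hearts 2 and 3 and Mmaa in TAC hearts 1 and 3 depart from their column.

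Against control hearts, 29 of the 30 genes were lower in TAC hearts and 1 (Mmaa) was higher. The median log2 difference was -0.91, a median 1.88-fold lower level, beside 0.03 over all 19051 genes, and single genes ranged from -1.73 (Ppm1k) to 0.17 (Mmaa). None of the 30 passed edgeR's test (lowest adjusted p 0.20), and 1 of 30, Ppm1k, had an unadjusted p under 0.05, beside 4054 of 19051 genes. The background was also empty: 0.0% of all genes passed edgeR's test between TAC and control hearts. By DESeq2, 0 of the 30 passed as lower, beside 2.87% of all genes. In 7 of 30 genes (Slc25a44, Dbt, Ppm1k, Mccc2, Aldh6a1, Mmut and Mmab) every TAC heart lay below every control heart, beside 14.0% of all genes.

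The TAC comparison turned on TAC heart 2. Without it, all 30 genes were lower in TAC hearts (median log2 difference -1.75). Of the 30, 22 passed as lower by edgeR, beside 14.0% of all genes in the same fit. By DESeq2 without TAC heart 2, a check added after the data were seen, 26 of 30 fell, beside 18.3% of all genes. With limma-voom and quality weights, which give less weight to a library that departs from its group, 27 of 30 fell, beside 19.8% of all genes. Without TAC heart 3, 0 of 30 passed by edgeR and the median log2 difference was -0.45.

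KO-TAC hearts were compared with TAC hearts to ask how the pathway differed between the fibroblast c-Myc knockout line and WT mice after the same operation. In KO-TAC hearts 27 of the 30 genes were higher and 3 (Bcat1, Klf15 and Mmaa) were lower, with a median log2 difference of 0.48 beside 0.01 over all genes. None of the 30 passed (lowest edgeR adjusted p 0.70), and 0.0% of all genes passed. No member's ranges separated: 0 of 30 were higher in every KO-TAC heart than in every TAC heart, beside 5.17% of all genes, and 0 were lower in every heart, beside 4.8%. Without TAC heart 3 the median was 0.02, with 17 genes higher and 13 lower, so the direction of the set rested on that heart, and without KO-TAC heart 3 it was 0.26, with 25 higher. Without TAC heart 2 it was 1.5 by edgeR, with 0 of 30 passing, and 20 of 30 rose by DESeq2, beside 10.6% of all genes. With limma-voom and quality weights 5 of 30 rose (Dld, Ppm1k, Mmut, Mmab and Oxct1), beside 3.3% of all genes.

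KO-TAC hearts against control hearts is the comparison that no TAC heart enters directly, although TAC libraries share its estimate of spread. Here 27 of 30 genes were lower and 3 were higher (Mcee, Mmaa and Bdh1), and the median log2 difference was -0.37 beside 0.04 over all genes. None passed (lowest edgeR adjusted p 0.85), and 0.0% of all genes passed. In 15 of the 30 genes every KO-TAC heart lay below every control heart, beside 13.6% of all genes, although the separations were small in many of them. The size of the median followed KO-TAC heart 1: it was -0.17 with 22 genes lower without that heart, and -0.59 with 27 lower without KO-TAC heart 3. With library size alone in place of TMM factors it was -0.18 with 21 lower, while the median of all genes was 0.28. With limma-voom and quality weights Klf15 fell, beside 2.8% of all genes that fell, and Bdh1 rose, beside 2.4% that rose. The 3 comparisons share hearts with each other, so the values of each are given side by side and no agreement between them is counted.

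**Figure D2:**
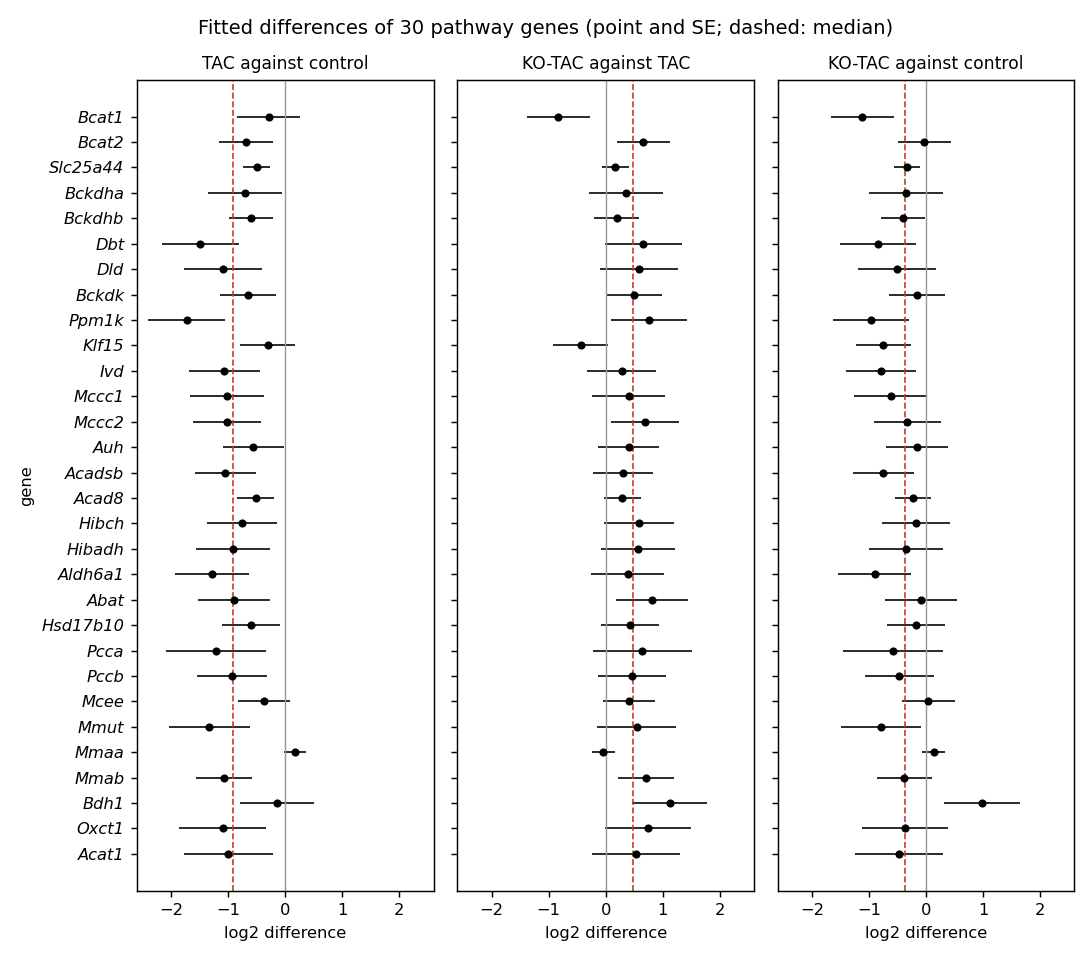
Log2 difference (horizontal axis) of each of the 30 genes (vertical axis) in the 3 comparisons, points with SE bars from the edgeR fit to all 9 libraries, with the median of the 30 genes dashed. The medians sit at -0.91, 0.48 and -0.37, and Bdh1 is the one gene clearly to the right in KO-TAC against control (0.98).

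Entry to the pathway was measured by 3 genes. Bcat2, the mitochondrial aminotransferase that removes the amino group in muscle, was at 80.9, 96.8 and 89.1 CPM in control hearts, at 45.4, 95.8 and 24.3 CPM in TAC hearts and at 52.3, 79.7 and 129 CPM in KO-TAC hearts. KO-TAC heart 3 was the highest of all 9 hearts and TAC heart 3 the lowest, and both operated groups overlapped the controls. TAC hearts had a log2 difference of -0.69 (SE 0.47, edgeR adjusted p 0.40) from control, and KO-TAC hearts of 0.66 (SE 0.47, adjusted p 0.73) from TAC hearts. Slc25a44, the mitochondrial carrier of branched-chain amino acids, was at 18.5, 18.2 and 18.3 CPM in control hearts, at 11.6, 17.9 and 9.42 CPM in TAC hearts and at 13.7, 13.4 and 16.6 CPM in KO-TAC hearts. All 6 operated hearts were below all 3 controls, TAC heart 2 only just. Its log2 difference from control was -0.50 (SE 0.24, adjusted p 0.25) in TAC and -0.33 (SE 0.23, adjusted p 0.86) in KO-TAC hearts. Both genes fell in TAC hearts by edgeR without TAC heart 2, Bcat2 by 1.36 and Slc25a44 by 0.81 on the log2 scale. In that fit 14.0% of all genes fell. Without TAC heart 3 neither passed (-0.34 and -0.32).

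Bcat1, the cytosolic aminotransferase, which heart muscle expresses little, was at 1.06 CPM or less in every heart. It was at 0.866, 0.889 and 0.981 CPM in control hearts, at 0.279, 1.06 and 0.903 CPM in TAC hearts and at 0.611, 0.253 and 0.386 CPM in KO-TAC hearts. It was the only one of the 30 genes for which TAC heart 3 was level with the controls and TAC heart 1 far below them. All KO-TAC hearts were below all control hearts, with a log2 difference of -1.12 (SE 0.55, edgeR adjusted p 0.85). The difference between KO-TAC and TAC was -0.83 (SE 0.55, adjusted p 0.72), but 0.03 with limma-voom and quality weights.

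The dehydrogenase complex has a decarboxylase of alpha and beta subunits, a transacylase core and a dihydrolipoyl dehydrogenase shared with other complexes. Bckdha, the alpha subunit, was at 221, 237 and 242 CPM in control hearts, at 131, 273 and 24.7 CPM in TAC hearts and at 116, 199 and 231 CPM in KO-TAC hearts. Bckdhb, the beta subunit, was at 38, 42.5 and 37.8 CPM in control hearts, at 21.1, 43.8 and 13.2 CPM in TAC hearts and at 20.2, 34.8 and 34.2 CPM in KO-TAC hearts. TAC heart 2 was above all controls for both subunits and TAC heart 3 was the lowest of all hearts. Exons of Bckdha are overlapped over 61.7% of their length by B3gnt8 on the opposite strand, which was itself at 12.0 CPM on average beside 186.2 CPM for Bckdha. How strand was treated in the counting is not stated.

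Dbt, the transacylase that forms the core of the complex, had a larger log2 difference from control than the decarboxylase subunits, which was not tested as such. It was at 83.0, 82.7 and 69.4 CPM in control hearts, at 18.6, 59.1 and 5.80 CPM in TAC hearts and at 24.0, 42.8 and 64.8 CPM in KO-TAC hearts. All 6 operated hearts were below the lowest control. The TAC level was 2.82-fold lower than control (log2 difference -1.49, SE 0.68, edgeR adjusted p 0.24). KO-TAC hearts had a log2 difference of -0.84 (SE 0.67, adjusted p 0.87) from control and of 0.66 (SE 0.67, adjusted p 0.78) from TAC hearts. Dld, the shared dihydrolipoyl dehydrogenase, averaged 389 ± 8.3 CPM in the control group, 183 ± 200 CPM after TAC and 273 ± 100 CPM after TAC with the knockout (mean ± SD, n = 3). Its log2 difference was -1.09 (SE 0.68) in TAC against control. The ratio of Bckdha to Dbt counts within a heart was 2.67 to 3.49 for the controls, 4.27 to 7.03 after TAC and 3.57 to 4.82 after TAC with the knockout, and all 6 operated hearts were above the controls. Ratios were chosen after the values were seen and carry no test. For none of them was the share of all gene pairs that separate in this way computed. Bckdhb, Dbt and Dld fell in TAC against control by edgeR without TAC heart 2 (-1.21, -2.69 and -2.46), beside 14.0% of all genes. Bckdha did not pass (-1.59). Without TAC heart 3 none of the 4 passed, at -0.29, -1.02, -0.63 and -0.22 in the same order. Between KO-TAC and TAC hearts the difference of Dbt was 1.85 without TAC heart 2 and 0.18 without TAC heart 3.

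Of the 3 regulators, the activating phosphatase had the largest log2 difference between TAC and control hearts, and the inactivating kinase a smaller difference. Ppm1k, the phosphatase that switches the dehydrogenase on (its promoter is printed above), was at 118, 127 and 99.4 CPM in control hearts, at 21.3, 74.9 and 7.63 CPM in TAC hearts and at 37.6, 50.8 and 87.7 CPM in KO-TAC hearts. All 6 operated hearts were below the lowest control, TAC heart 2 included. Relative to control the TAC level was 3.32-fold lower (log2 difference -1.73, SE 0.68), with adjusted p-values of 0.20 by edgeR and 0.073 by DESeq2, and the log2 difference was -0.97 (SE 0.67, adjusted p 0.86) in KO-TAC hearts. Without TAC heart 2 the TAC difference was -3 and passed, and without TAC heart 3 it was -1.27 and did not pass.

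Bckdk, the kinase that switches the complex off, was at 66.2, 75.3 and 74.1 CPM in control hearts, at 39.2, 81.4 and 15.4 CPM in TAC hearts and at 42.7, 73.4 and 76.6 CPM in KO-TAC hearts. TAC heart 2 and KO-TAC heart 3 were above all controls, and the groups overlapped. The log2 difference was -0.66 (SE 0.49, adjusted p 0.43 by edgeR) in TAC against control, -1.4 without TAC heart 2, where it passed, and -0.26 without TAC heart 3, where it did not. The ratio of kinase to phosphatase counts within a heart was 0.561, 0.592 and 0.746 in control hearts, 1.84, 1.09 and 2.02 in TAC hearts and 1.14, 1.45 and 0.873 in KO-TAC hearts. Every operated heart, TAC heart 2 and KO-TAC heart 3 included, was above every control heart on this ratio, which is independent of library scaling. Its denominator, Ppm1k, was already below every control heart in every operated heart. The ratio was chosen after the values were seen, and the share of all gene pairs that separate in this way was not computed. It compares counts of transcripts of different length, so its changes between hearts can be read and its absolute size cannot.

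Klf15, the transcription factor with 2 E-box matches in the promoter printed above, was at 41.5, 47.7 and 48.9 CPM in control hearts, at 25.6, 72.0 and 13.5 CPM in TAC hearts and at 28.2, 29.3 and 24.6 CPM in KO-TAC hearts. All 3 hearts with the knockout (27.4 ± 2.5 CPM, mean ± SD, n = 3) were below the lowest control, while TAC heart 2 was the highest of the 9. KO-TAC heart 3, in which the median of the 30 genes was -0.05 from control, had the lowest Klf15 of its group. The log2 difference from control was -0.75 (SE 0.48, edgeR adjusted p 0.86) in KO-TAC and -0.31 (SE 0.48, adjusted p 0.71) in TAC hearts. Between KO-TAC and TAC hearts it was -0.44 (SE 0.48, adjusted p 0.79) with all hearts, 0.49 without TAC heart 2 and -0.83 without TAC heart 3. The TAC difference from control was -1.24 and passed without TAC heart 2, was -0.80 and passed with limma-voom and quality weights, and was 0.07 and did not pass without TAC heart 3. Only limma-voom with quality weights called Klf15 lower in KO-TAC than in control hearts.

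**Figure D3:**
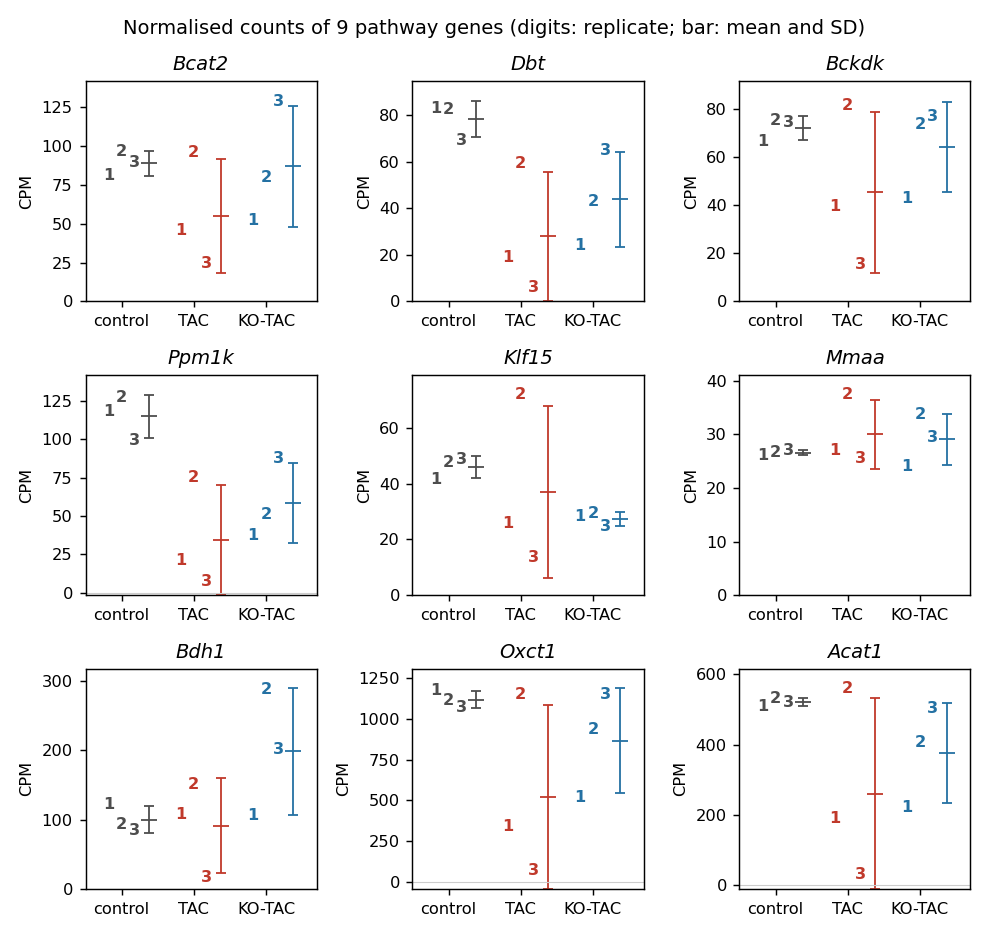
CPM of 9 genes (vertical axes, linear) in control, TAC and KO-TAC hearts, each heart drawn as its replicate digit, with the mean and SD beside them. TAC hearts 2 and 3 lie at opposite ends for most genes, the 3 KO-TAC hearts of Klf15 lie together at 24.6 to 29.3 CPM below the controls, and Mmaa stays between 24.1 and 37.4 CPM in all 9 hearts.

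The leucine branch had 4 members, all with lower means in TAC than in control hearts. Ivd, isovaleryl-CoA dehydrogenase, was at 411 to 427 CPM in control, 67.1 to 426 CPM in TAC and 150 to 350 CPM in KO-TAC hearts. Mccc1 and Mccc2, the subunits of methylcrotonyl-CoA carboxylase, had log2 differences of -1.02 (SE 0.65) and -1.02 (SE 0.59) in TAC against control. Mccc2, whose promoter is printed above, was at 49.4 to 54.0 CPM in control hearts and at 23.6, 46.9 and 5.23 CPM in TAC hearts, all below the controls, and KO-TAC heart 3 at 50.3 CPM lay within the control range. Auh, the hydratase of the next step, differed least in this branch (-0.56, SE 0.54). Between KO-TAC and TAC hearts the 4 genes had log2 differences of 0.28 to 0.69. This direction rested on TAC heart 3: without it the branch median was -0.06, with 3 of the 4 genes lower. Without TAC heart 2 that median was 1.5. No member of the branch passed in any comparison by edgeR with all hearts (lowest adjusted p 0.33, 0.76 and 0.87 in TAC against control, KO-TAC against TAC and KO-TAC against control). By edgeR without TAC heart 2, Ivd, Mccc1 and Mccc2 fell in TAC against control, beside 14.0% of all genes. The branch median was -1.99 there, and -0.55 without TAC heart 3, where none passed.

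The valine and isoleucine branch had 7 members, and all 7 had lower means in TAC than in control hearts, with log2 differences of -1.29 to -0.52. Aldh6a1, the methylmalonate-semialdehyde dehydrogenase that closes the valine route, differed most (-1.29, SE 0.65, edgeR adjusted p 0.27). It was at 240 to 246 CPM in control hearts, at 59.6, 212 and 25.9 CPM in TAC hearts and at 83.9, 114 and 192 CPM in KO-TAC hearts, so that all 6 operated hearts were below all controls. Acadsb and Acad8, the acyl-CoA dehydrogenases of the isoleucine and valine routes, had log2 differences of -1.05 (SE 0.54) and -0.52 (SE 0.32). Hibch and Hibadh, the hydrolase and dehydrogenase of 3-hydroxyisobutyrate metabolism, had -0.76 (SE 0.61) and -0.92 (SE 0.65). In all these genes TAC heart 3 was the lowest of the 9 hearts, at 8.41 CPM for Hibch against 64.2 to 73.6 CPM in control hearts. Abat, the aminotransferase for 4-aminobutyrate that also acts on a valine product, was at 13.7, 26.1 and 3.11 CPM in TAC hearts against 21.7 to 33.9 CPM in control hearts. Hsd17b10, a dehydrogenase of isoleucine breakdown, was at 52.1, 88.1 and 14.1 CPM against 73.3 to 84.5 CPM. Against control, KO-TAC hearts had a median log2 difference of -0.23 over the branch, smaller than in TAC hearts (-0.90), and none passed in either comparison by edgeR with all hearts. In TAC against control all 7 fell with limma-voom and quality weights, beside 19.8% of all genes. By edgeR without TAC heart 2, 5 of the 7 (Acadsb, Acad8, Hibch, Hibadh and Aldh6a1) fell (median -1.68), beside 14.0% of all genes. Without TAC heart 3 none passed (median -0.44).

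In the propionyl-CoA arm the mutase and its cofactor chaperone had unlike values. Mmut, the methylmalonyl-CoA mutase, was at 114 to 130 CPM in control hearts, at 26.6, 106 and 10.4 CPM in TAC hearts and at 35.9, 65.6 and 106 CPM in KO-TAC hearts, all 6 operated hearts below the controls. Mmaa, which protects and reloads that mutase with its cobalamin cofactor, was at 26.1 to 27.1 CPM in control hearts, at 27, 37.4 and 25.6 CPM in TAC hearts and at 24.1, 33.7 and 29.4 CPM in KO-TAC hearts. It was the gene of the 30 with a positive difference in TAC against control (0.17, SE 0.20, edgeR adjusted p 0.62), and in TAC heart 3, where 27 of the 30 were more than 1 log2 unit below the control mean, it was at -0.06. The ratio of Mmaa to Mmut counts within a heart was 0.20 to 0.236 in control hearts, 1.02, 0.354 and 2.47 in TAC hearts and 0.673, 0.514 and 0.278 in KO-TAC hearts. All operated hearts were above all controls on this ratio, which was chosen after the values were seen. Its denominator, Mmut, was already below all controls in them.

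Mmab, the adenosyltransferase that makes the mutase cofactor, had values more like those of the mutase than those of Mmaa. It was at 41.9, 33.4 and 38.2 CPM in control hearts, at 14.1, 32.9 and 6.62 CPM in TAC hearts and at 19.3, 30.3 and 37.9 CPM in KO-TAC hearts. TAC hearts were all below the controls, heart 2 by a small margin, and KO-TAC heart 3 was within the control range. The log2 difference came to -1.08 (SE 0.49, edgeR adjusted p 0.24) in TAC against control and 0.71 (SE 0.49, adjusted p 0.73) in KO-TAC against TAC. Pcca and Pccb, the subunits of propionyl-CoA carboxylase, had -1.22 (SE 0.88) and -0.93 (SE 0.61), and Pcca had the lowest level relative to control of any member in any heart, -4.98 in TAC heart 3. Mcee, the epimerase between carboxylase and mutase, was at 36.0 to 36.8 CPM in control and at 35.5, 40.6 and 8.11 CPM in TAC hearts, so its mean difference (-0.37, SE 0.46) rested on heart 3 and was 0.06 without it. Without TAC heart 2, Pcca, Pccb, Mmut and Mmab fell in TAC against control by edgeR, beside 14.0% of all genes. Mmaa was at -0.02 in that fit. Without TAC heart 3 none of the arm passed (median -0.58).

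Ketone oxidation runs from 3-hydroxybutyrate through Bdh1, Oxct1 and Acat1, and the first of these genes had other values than the next. Bdh1, the 3-hydroxybutyrate dehydrogenase, was at 122, 93.5 and 84.8 CPM in control hearts, at 107, 150 and 16 CPM in TAC hearts and at 106, 288 and 201 CPM in KO-TAC hearts. KO-TAC hearts 2 and 3 were the highest of all 9 hearts, and KO-TAC heart 1 was within the control range. The log2 difference came to 0.98 (SE 0.66, edgeR adjusted p 0.86) in KO-TAC against control and 1.12 (SE 0.66, adjusted p 0.70), a 2.18-fold higher level, in KO-TAC against TAC, and -0.14 (SE 0.65, adjusted p 0.91) in TAC against control. Bdh1 rose in KO-TAC against control with limma-voom and quality weights only, and rose in KO-TAC against TAC by DESeq2 without TAC heart 2 only. By edgeR the difference between KO-TAC and TAC was 1.69 without TAC heart 2 and 0.64 without TAC heart 3, and that between TAC and control was -0.71 and 0.35.

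Oxct1, the transferase that activates acetoacetate and the rate-setting enzyme of ketone use, was at 1170, 1110 and 1070 CPM in control hearts, at 340, 1150 and 71.9 CPM in TAC hearts and at 518, 932 and 1150 CPM in KO-TAC hearts. Acat1, the thiolase that splits acetoacetyl-CoA and also serves isoleucine breakdown, was at 508, 531 and 521 CPM in control hearts, at 190, 560 and 30.1 CPM in TAC hearts and at 221, 405 and 502 CPM in KO-TAC hearts. For both genes TAC heart 2 and KO-TAC heart 3 were near the controls and the other operated hearts were below them. The log2 differences in TAC against control were -1.10 (SE 0.77, edgeR adjusted p 0.41) for Oxct1 and -1 (SE 0.78, adjusted p 0.45) for Acat1. Both fell by edgeR without TAC heart 2 (-2.44 and -2.24), beside 14.0% of all genes, and neither passed without TAC heart 3 (-0.60 and -0.48). The ratio of Bdh1 to Oxct1 counts was 0.104, 0.0842 and 0.0791 in control hearts, 0.314, 0.131 and 0.223 in TAC hearts and 0.204, 0.309 and 0.174 in KO-TAC hearts. All 6 operated hearts were above all 3 controls on this ratio, also chosen after the values were seen. Bdh1 and Oxct1 exons are overlapped by opposite-strand genes over 13.7% and 12.6% of their length (Gm15743 at 1.88 CPM and BC037032 at 3.21 CPM). Aldh6a1 and Bcat2 exons are so overlapped over 18.6% and 15.9% (Bbof1 at 2.03 CPM and 0610005C13Rik at 0.601 CPM). Some other members have smaller overlaps.

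**Figure D4:**
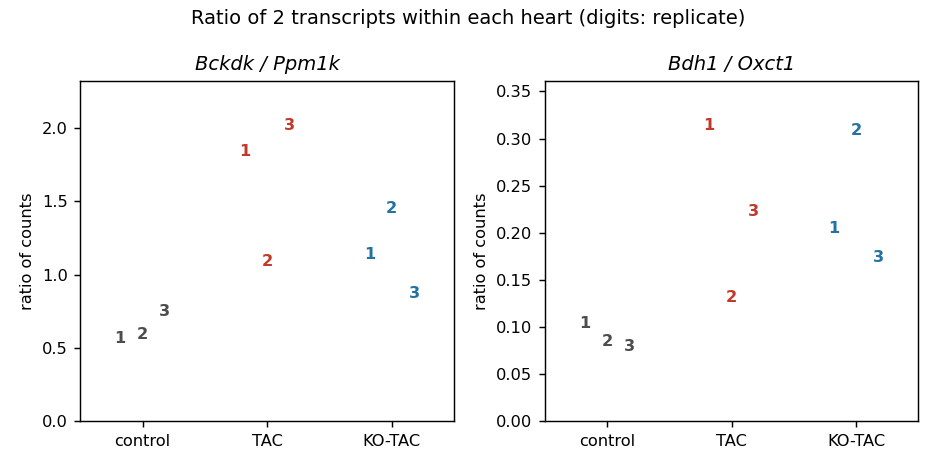
Ratio of counts of the kinase Bckdk to the phosphatase Ppm1k (left) and of Bdh1 to Oxct1 (right) within each heart (vertical axes from 0), with hearts drawn as replicate digits in the 3 groups. All 6 operated hearts lie above the control hearts in both panels, from 0.873 against at most 0.746 on the left and from 0.131 against at most 0.104 on the right. Both ratios were chosen after the values were seen.

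Levels of the pathway and of heart muscle markers were low in the same hearts. The 10 cardiomyocyte markers, none at 0, had a median log2 level relative to control of -0.40, 0.24 and -2.92 in TAC hearts 1 to 3 and of -0.61, -0.04 and -0.01 in KO-TAC hearts 1 to 3. The pathway's median minus that of the markers was -0.81, -0.14 and 0.12 in TAC hearts and -0.36, -0.25 and -0.04 in KO-TAC hearts. On these medians the pathway was lower than the markers in TAC heart 1, and in TAC heart 3 both were low by similar amounts. The gap depends on the summary chosen, as single markers had log2 differences of -1.52 to -0.15 in TAC against control. Summed cardiomyocyte markers were at 13200 to 95100 CPM in TAC and 50100 to 81200 CPM in KO-TAC hearts, against 85300 to 86700 CPM in control hearts. In whole-heart RNA, fewer heart muscle cells and less of these transcripts per cell cannot be told apart.

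Fibroblast markers were highest in the hearts where the pathway was lowest. The 10 fibroblast markers summed to 868 to 915 CPM in control hearts, 2270, 818 and 3210 CPM in TAC hearts and 1570, 1440 and 999 CPM in KO-TAC hearts. The 10 endothelial markers summed to 1030 to 1070, 1020 to 2070 and 1110 to 1200 CPM, the 10 macrophage markers to 242 to 259, 225 to 499 and 249 to 433 CPM, and the 10 smooth muscle and pericyte markers to 2530 to 2760, 1340 to 3110 and 2680 to 3260 CPM in control, TAC and KO-TAC hearts. None of these genes was at 0 in all hearts. Erythroid markers summed to 584 to 926 CPM in control hearts, to 597, 1120 and 2730 CPM in TAC hearts and to 675 to 963 CPM in KO-TAC hearts, so TAC heart 3 was the highest. Neutrophil markers were at 0.399 to 0.718, at 1.3, 0.484 and 2.75 and at 0.337 to 2.07 CPM in the same order, with Ly6g at 0 in all hearts, and lymphocyte markers at 2.44 to 3.17, 1.59 to 6.23 and 3.12 to 6.5 CPM. Skeletal muscle markers, some of which heart muscle also expresses, summed to 1350 to 1570 CPM in control hearts, to 2810, 2180 and 658 CPM in TAC hearts and to 2930, 6360 and 2060 CPM in KO-TAC hearts. Tcf21, the gene whose promoter drives the Cre and a fibroblast marker itself, was at 4.90 to 6.44 CPM in control, 5.98 to 6.89 CPM in TAC and 3.89 to 4.13 CPM in KO-TAC hearts. Liver, kidney and lung, tissues rich in some of these enzymes or adjacent to the heart, were nearly unrepresented. Their marker sums stayed at or below 5.90, 0.944 and 0.788 CPM in every heart, with Apob and Fgb, Umod, Slc12a1 and Slc34a1, and Sftpa1 and Scgb1a1 at 0 in all. Adipocyte markers summed to at most 2.67 CPM, with Lep and Ucp1 (the brown fat gene) at 0 in all hearts. The part of cell composition in the differences of the pathway was not tested.

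**Figure D5:**
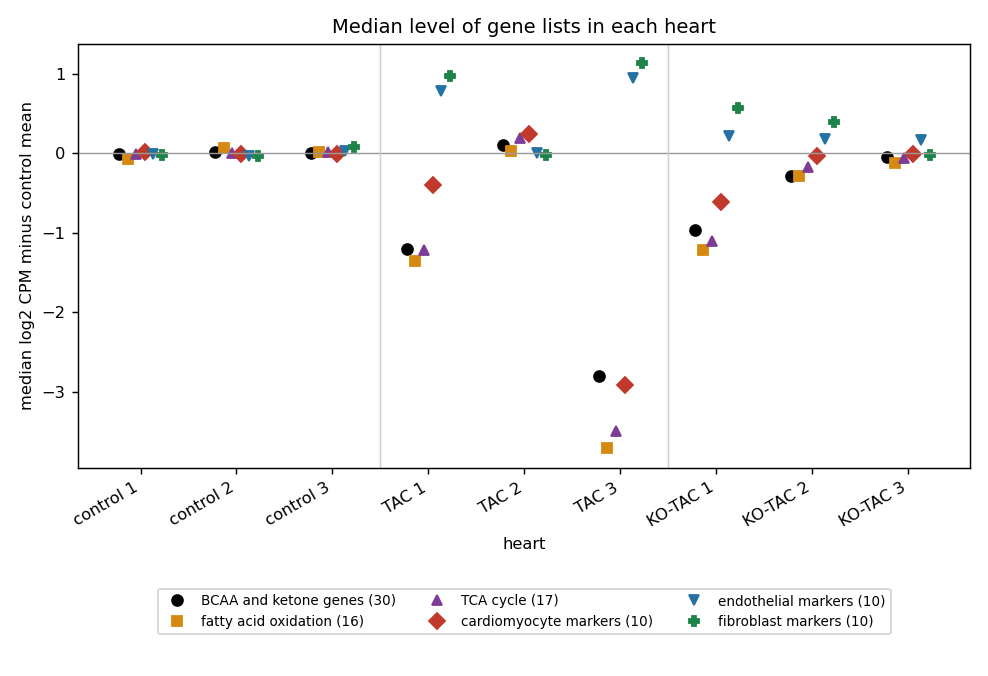
Median log2 CPM minus the control mean (vertical axis) of the 30 pathway genes, of 2 neighbouring metabolic lists (fatty acid oxidation and the citric acid or TCA cycle) and of 3 marker lists in each of the 9 hearts (horizontal axis). In TAC heart 3 the pathway (-2.80) lies with the cardiomyocyte markers (-2.92), while in TAC heart 1 it lies below them (-1.21 against -0.40).

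Other genes of the same metabolism were read from 8 lists of 106 names in all, of which 103 entered the test. None passed edgeR's test with all hearts in any comparison. DESeq2 with all hearts did call some of them, and those named here were chosen after their values were seen. In TAC against control, the peroxisomal enzyme Ehhadh (-1.69), the monocarboxylate transporter Slc16a7 (-1.71), the pyruvate dehydrogenase phosphatases Pdp1 (-1.3) and Pdp2 (-2.26), the glucocorticoid receptor Nr3c1 (-0.61) and the coactivator Ppargc1b (-1.55) were among those that fell by DESeq2, beside the 2.87% of all genes given above. Slc16a3, another monocarboxylate transporter (2.24), and the solute carriers Slc43a3 (1.3) and Slc3a2 (0.86) rose, beside 5.67% of all genes. In KO-TAC against TAC, Slc3a2 fell by DESeq2 (-0.82), beside 0.614% of all genes. Of 16 fatty acid oxidation genes 16 were lower in TAC than in control hearts (median log2 difference -0.97), and of 17 citric acid cycle genes 17 were lower (median -0.81). The 15 members of the pyruvate, oxoglutarate, oxoadipate and glycine complexes that share Dld with the branched-chain complex, with their kinases and phosphatases, had a median of -0.90, with 13 lower. These medians lay close to the -0.91 of the branched-chain and ketone genes. Without TAC heart 2 the 3 medians were -2.11, -1.8 and -1.89, with 10, 9 and 9 genes past edgeR's test. In that fit 14.0% of all genes passed as lower. The citric acid cycle list and the list of complexes that share Dld both hold Ogdh and Dlst, which are among the 9 of each. Without TAC heart 3 the 3 medians were -0.50, -0.37 and -0.44 with 0 past the test. Of 17 transporters and shared enzymes 13 were lower (median -0.63), of 14 genes of cobalamin and biotin supply 11 were lower (median -0.53), and of 9 genes of ketone transport and other ketone enzymes 6 were lower (median -0.33). The 15 regulators had a median of -0.61 with 10 lower, and the 6 measured targets of KLF15 outside the pathway had a median of -1.01 with 6 lower. In KO-TAC against TAC the medians of the 8 lists ran from 0.05 (regulators) to 0.58 (KLF15 targets). Without TAC heart 3 they ran from -0.11 (ketone transport) to 0.19 (KLF15 targets). Without TAC heart 2 they ran from 0.16 (ketone transport) to 1.68 (KLF15 targets). In KO-TAC against control the medians ran from -0.52 (fatty acid oxidation) to -0.09 (ketone transport).

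From these lists the genes of smallest p in each comparison are described next. Pdp1, the phosphatase that activates pyruvate dehydrogenase, was at 39.9, 43.6 and 38.6 CPM in control hearts, at 15.3, 20.9 and 13.1 CPM in TAC hearts and at 22.8, 30.4 and 29.3 CPM in KO-TAC hearts. Each KO-TAC heart was above each TAC heart, beside 5.17% of all genes, and below each control heart, beside 13.6%. Pdp1 was chosen by its p in these same data. Its log2 difference came to -1.31 (SE 0.21, edgeR adjusted p 0.11) in TAC against control, 0.74 (SE 0.21, adjusted p 0.54) in KO-TAC against TAC and -0.57 (SE 0.21, adjusted p 0.85) in KO-TAC against control. Slc3a2, the heavy chain of the plasma membrane transporters that carry branched-chain amino acids into cells, was at 21, 26.6 and 24.8 CPM in control hearts, at 42.4, 38.1 and 49.7 CPM in TAC hearts and at 24.8, 26.2 and 23.7 CPM in KO-TAC hearts. The TAC hearts, heart 2 included, were above all other hearts, and the KO-TAC hearts were at control level. Of all 19051 genes, 2681 were higher in every TAC than in every control heart. In 4.8% every KO-TAC heart was below every TAC heart. Slc3a2 too was chosen by its p. The log2 difference came to 0.85 (SE 0.17, edgeR adjusted p 0.13) in TAC against control and -0.80 (SE 0.17, adjusted p 0.34) in KO-TAC against TAC. Without TAC heart 2, Pdp1 fell (-1.53) and Slc3a2 rose (0.93) in TAC against control by edgeR, and without TAC heart 3 neither passed (-1.18 and 0.73).

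Slc43a3, Pparg and Hcfc1 were named by the same rule. Slc43a3, a solute carrier of the family that holds branched-chain amino acid transporters, was at 55.8 to 62.5 CPM in control and 106 to 195 CPM in TAC hearts (log2 difference 1.29, SE 0.29, edgeR adjusted p 0.13), and without TAC heart 2 it rose by edgeR (1.46), while without TAC heart 3 it did not pass (1). Pparg, a nuclear receptor, was at 10.4, 11.3 and 18.9 CPM in TAC and at 8.91, 6.81 and 7.59 CPM in KO-TAC hearts (-0.80, SE 0.29, adjusted p 0.65). Hcfc1, a transcriptional coregulator known for its part in cobalamin metabolism through Mmachc, was at 70.1 to 79.2 CPM in control and 39.7 to 57.7 CPM in KO-TAC hearts (-0.64, SE 0.23, adjusted p 0.85).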

How the data were processed

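Total heart RNA was extracted with Trizol and sequenced from directional NEBNext libraries, per the labels' protocols. The authors deposited 1 table of raw counts, with gene symbols in rows and 9 libraries in columns, and its whole numbers show no normalization. The submitters' processing notes name the builds GRCm38 and mm10 and the tools HISAT2 2.2.1, StringTie 2.2.1, Trim Galore 0.6.10, DESeq2 1.42.0 and SAMtools 1.15. Not given in the sources used here are the counting tool, its annotation and its strand setting. Columns were matched to samples by their descriptions in the labels. Of the table's 55401 rows 110 repeat a symbol, and no row lacks a gene name.

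The main test was edgeR's two-sided quasi-likelihood test (version 4.0.16 in R 4.3.3) after TMM scaling, filterByExpr at a minimum count of 10, all 9 libraries and the group as the only term. Adjusted p is Benjamini-Hochberg over the 19051 genes kept, at 0.05. The SE is the absolute log2 difference divided by the square root of the F statistic of this test. The fit had a biological coefficient of variation of 42.1% and 3.53 prior degrees of freedom. Relative log2 levels used a prior count of 2. Exact permutation tests were not used, since with 3 hearts a side their smallest p is 0.1. Per-kilobase levels used exon lengths of GENCODE M21 (GRCm38), in which Mmut is named Mut. Fits were also run on simulated data that gave each gene the same spread in every group. That run cannot show how the fits behave where groups differ in spread, as they did here.

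Per-heart values are given for the gatekeeping steps (Bcat2, Bckdha, Bckdhb, Dbt, Bckdk, Ppm1k, Klf15, Bdh1, Oxct1, Acat1) and for the 4 members of smallest p in each comparison. Other members have log2 differences, some with ranges or means, and where per-heart values are printed for them (Mccc2, Aldh6a1, Abat, Hsd17b10, Mmut, Mmaa, Mcee) this choice followed a look at their values. Of the other pathway lists the 3 genes of smallest p in each comparison are named. Of the genes this selects, 1 is not reported here. The members and lists were chosen with earlier results of these data known. Alternatives were RLE factors, library size alone, DESeq2, limma-voom 3.58.1 with quality weights, no low-count filter, at least 1 CPM in 3 libraries, a replicate block (the number in the titles), a fit to only the 2 groups of a comparison, mitochondrial genes left out and each library left out in turn. DESeq2 without TAC heart 2 or 3 was added after seeing the data.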

Additional observations from a re-analysis of the deposited data

How the results depend on the processing

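With all hearts, RLE factors, library size alone, a minimum of 1 CPM in 3 libraries and removal of mitochondrial genes left 0 genes past edgeR's threshold in each comparison, as in the results above. Library size alone moved the median of all genes to 0.29 in TAC against control, -0.02 in KO-TAC against TAC and 0.28 in KO-TAC against control, and that of the 30 genes to -0.86, 0.60 and -0.18. DESeq2 called 1626, 195 and 89 of all genes in TAC against control, KO-TAC against TAC and KO-TAC against control, and limma-voom with quality weights called 7230, 996 and 991. DESeq2 called 7134, 3706 and 364 of all genes without TAC heart 2 and 759, 152 and 320 without TAC heart 3. Of the 30 genes, limma-voom with quality weights called 27, 5 and 2, and DESeq2 without TAC heart 2 called 26, 20 and 0, while the other tools run on all hearts called 0. In KO-TAC against control, no low-count filter gave 2 calls and the fit to the 2 groups alone gave 30, none of them among the 30 pathway genes. Leaving out each library in turn gave 0 to 5477 calls in TAC against control (5477 without TAC replicate 2), 0 to 13 in KO-TAC against TAC (13 without TAC replicate 2) and 0 to 4 in KO-TAC against control (4 without TAC replicate 3), with 0 to 22, 0 to 0 and 0 to 0 of the 30 genes. The pathway median ranged from -1.75 to -0.45, from 0.02 to 1.5 and from -0.59 to -0.17 over these fits. Bcat1 in KO-TAC against TAC was -0.83 and became 0.03 with limma-voom and quality weights. Over 20 alternatives single members changed sign 12, 32 and 16 times in the 3 comparisons, and in each case but Bcat1 the edgeR value with all hearts was within its SE. The cause was not tested. With the replicate number as a block (replicate block) the medians were -1.17, 0.70 and -0.40 with 0 calls. Samples of the same number had correlations of -0.255 to 0.124 between their deviations from the group means, and samples of unlike number of -0.434 to 0.355. With 3 hearts a group these values cannot decide whether the numbers mark a shared litter, day or batch. The column names number the TAC hearts otherwise than the titles do, and that numbering was not examined. Depth limits Bcat1, at or below 1.06 CPM, more than the other members, and the minimum of 1 CPM in 3 libraries left 29 of the 30 genes.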
